A study of Brassica napus with 12 samples.

Results

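Root tips of Drakkar, a spring variety of oilseed rape (*Brassica napus*), were compared after growth at warm (29 °C) and at optimal (21 °C) temperature, to see which transcripts change with warming within this variety. The 6 Drakkar libraries, 3 at 29 °C and 3 at 21 °C, were taken from the 12 libraries of the series, and all 101038 genes of the Drakkar count table were used. The other 6 libraries are of the variety Duplo at the same temperatures. Seeds were germinated for 3 days and the seedlings were then kept for 7 days at a constant 29 °C or 21 °C on a pouch-and-wick system with the same nutrient solution and day length, with no other treatment and no transgene. Each of the 3 biological replicates combined the tips of seedlings from several pouches. The labels give the tips as 1 cm long and the study's methods give a shorter length. Poly(A) RNA was sequenced and the reads on each gene were counted. Because *B. napus* carries an A and a C subgenome with closely matching versions of its genes, how reads were split between such copies is uncertain for every gene named here.

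When proteins unfold in warm cells, heat-shock transcription factors switch on chaperone genes. Small heat-shock proteins hold unfolded proteins, HSP70 with its J-domain partners refolds them, HSP90 with its co-chaperones matures signalling proteins, and HSP101 pulls aggregates apart. Roots also respond to warmth through ethylene, auxin and cytokinin, through enzymes that remove peroxides, and through enzymes that loosen cell walls.

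Depth ran over 26790589 to 30549701 gene-assigned reads at 29 °C and 33554220 to 39934384 at 21 °C. Levels are given as CPM (counts scaled to a common library size), and 3 reads correspond to 0.0776 to 0.106 CPM. No pair of libraries of one temperature agreed within sampling noise (chi-square over degrees of freedom, 7.88 to 33.9). Values for single libraries are given in the order of replicates 1, 2 and 3. No gene of the lists of root tip, dividing cell, root hair, xylem and green tissue markers carries a name in the sources used here, so the tissue was not checked against its markers, and a change in the number of cells of a type and a change in RNA per cell cannot be told apart. In a principal component analysis of the 6 libraries, the first component held 51.1% of the variance, with scores of 54.3, 20 and 80.8 at 29 °C, against -43.6, -67.6 and -43.9 at 21 °C. The second component held 17.4% and set 29 °C replicate 2 apart, with a score of 66.5 against scores from -26.9 to 4.61 in the other 5 libraries.

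Before the temperatures are compared, both Drakkar libraries numbered 2 have to be described, since a set of genes set them apart from the other 4 at either temperature. On the log2(CPM + 0.5) scale, 22 genes were over 4-fold higher and 9 genes over 4-fold lower in both of them than in any of the other 4, whereas no gene did so for replicate 1 or for replicate 3. The 22 genes summed to 8.38, 2591 and 194 CPM at 29 °C, against 33.6, 2576 and 60.7 CPM at 21 °C. The 9 genes summed to 1636, 190.5 and 1389.8 CPM at 29 °C, against 1418, 192 and 1557 CPM at 21 °C. One of the 22, BnaC02g41510D, had 0, 128 and 0.493 CPM at 29 °C, against 0.0903, 173 and 0.677 CPM at 21 °C, and so was near 0 in 4 libraries and high in both numbered 2. In Duplo, the 22 genes summed to between 3034 and 4519.8 CPM in 5 libraries and to 21.9 CPM in 21 °C replicate 1. Outside this set, the *MT2A* copy BnaC03g00710D had 0 CPM in every Duplo library. In Drakkar it had 6.39, 8.47 and 7.99 CPM at 29 °C, against 1.48, 0.983 and 1.14 CPM at 21 °C. On this gene the libraries numbered 2 were thus like the other Drakkar libraries. The 31 genes carry no name in the sources used here, and none was called between the temperatures. What sets these libraries apart was not tested, and counts of changed genes without both of them stand beside the main counts.

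**Figure D1:**
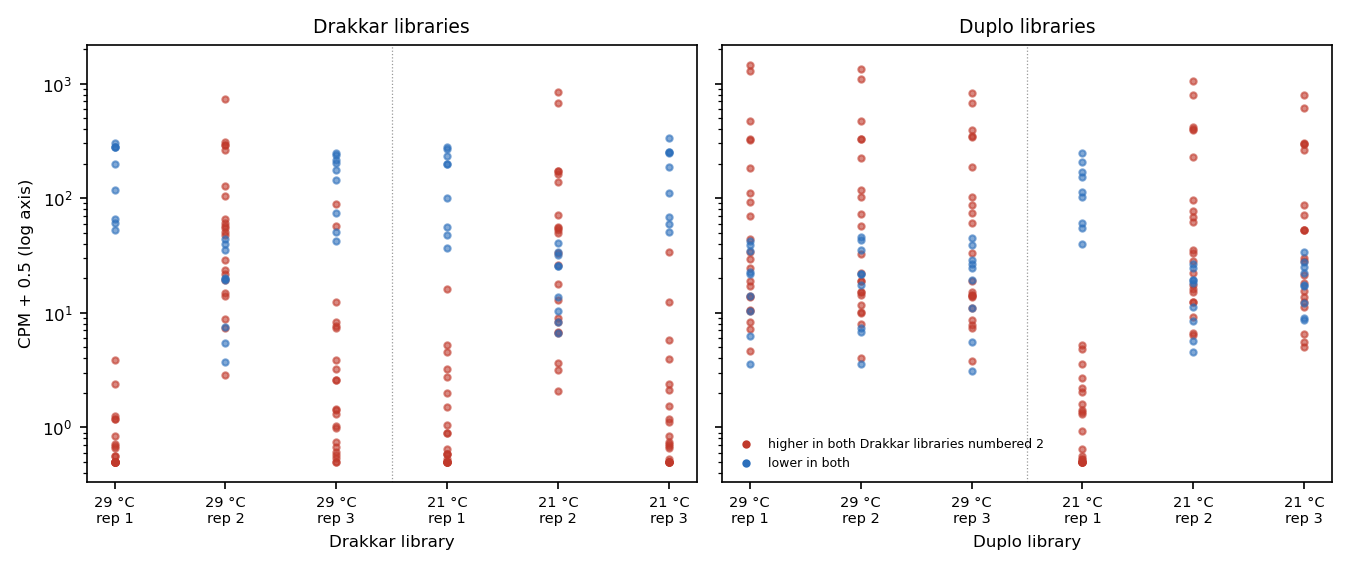
Level of the 22 genes higher and the 9 genes lower in both Drakkar libraries numbered 2, as CPM + 0.5 on a log axis, with 1 point per gene and library, for Drakkar (left panel) and Duplo (right panel) at 29 °C and 21 °C. In replicate 2 of either temperature the red points lie higher and the blue points lower than in the other Drakkar libraries, and in Duplo 21 °C replicate 1 alone has low red and high blue points.

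Between 29 °C and 21 °C, 1308 genes were upregulated and 399 downregulated among 52709 genes tested, which is 2.48% and 0.757% of them, or 3.24% in all. A gene was taken as differentially expressed (DEG) at an adjusted p under 0.05 in edgeR's quasi-likelihood test and an absolute log2 fold change above 1. In all 1707 DEGs the 3 libraries of one temperature lay above the 3 of the other, which also held for 34.8% of all genes tested. The median log2 fold change was 1.67 over the upregulated genes and -1.38 over the downregulated genes, against 0.01 over all genes tested. Among the upregulated genes 466 had a log2 fold change above 2 and 50 above 5, whereas among the downregulated genes 75 lay below -2 and 3 below -5. The A subgenome gave 624 upregulated genes among 25437 tested (2.45%) and the C subgenome 684 among 27146 (2.52%). With both libraries numbered 2 left out, there were 2580 DEGs, 1301 of them shared with the 1707. DESeq2 called 2488 genes (4.72%).

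**Figure D2:**
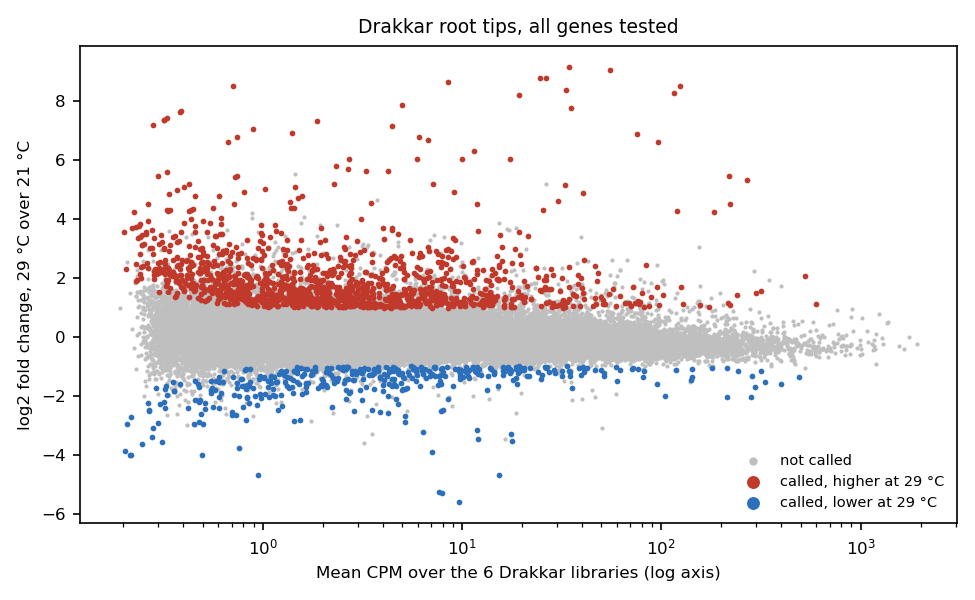
Log2 fold change of 29 °C over 21 °C (vertical axis) against the mean CPM over the 6 Drakkar libraries (log axis) for the 52709 genes tested, 1 point per gene. The 1308 upregulated DEGs (red) reach further from 0 than the 399 downregulated DEGs (blue).

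The number of DEGs depended on single libraries. Leaving out 29 °C replicate 2 gave 3173 DEGs (5.89% of the genes tested), of which 1594 were among the 1707, whereas leaving out 29 °C replicate 1 or 3 gave 336 and 185. Leaving out 21 °C replicate 1, 2 or 3 gave 126, 131 and 11. Each of these fits also had 1 library fewer in a group. Of the 1707 DEGs, 104 were called in none of the 6 fits, 1240 in 1 of them and 10 in all 6.

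A call in all 6 fits favours genes with a small spread, so close libraries and no overlap below partly follow from that choice. Of those 10 genes, 8 rose and 2 fell. Both copies of *DRG1*, which encodes a GTP-binding protein, were among them: BnaA07g30360D had 24.7, 11.2 and 22.8 CPM at 29 °C, against 0.301, 0.31 and 0.277 CPM at 21 °C (log2 fold change 6.03, standard error 0.38, edgeR adjusted p = 0.00462), and BnaC06g33810D had 28.4, 14.2 and 25.3 CPM at 29 °C, against 0.301, 0.129 and 0.431 CPM at 21 °C (log2 fold change 6.32, standard error 0.43, edgeR adjusted p = 0.00551). All 29 °C libraries of both copies lay far above every 21 °C library, with 29 °C replicate 2 the lowest of the 3. Both copies of *DJC53*, a J-domain protein gene, rose as well. BnaC01g27270D had 11.3, 8.33 and 10.3 CPM at 29 °C, against 0.963, 1.06 and 0.985 CPM at 21 °C (log2 fold change 3.31, standard error 0.17, edgeR adjusted p = 0.00462), and BnaAnng20610D had 16.9, 13.9 and 15.7 CPM at 29 °C, against 2.8, 2.12 and 2.52 CPM at 21 °C (log2 fold change 2.64, standard error 0.15, edgeR adjusted p = 0.00462). Their 29 °C libraries lay close together and did not overlap those at 21 °C.

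Among the other 6, *PAB4* (BnaA09g42030D), whose product binds the poly(A) tail of messenger RNA, had 55.2, 47.6 and 49.2 CPM at 29 °C, against 11.1, 13 and 13.5 CPM at 21 °C (log2 fold change 2.01, standard error 0.12, edgeR adjusted p = 0.00462). The profilin gene *PRF1* (BnaAnng19920D), whose product binds actin, had 16.3, 16.5 and 18.4 CPM at 29 °C, against 3.55, 2.64 and 3.48 CPM at 21 °C (log2 fold change 2.41, standard error 0.15, edgeR adjusted p = 0.00462). A class III peroxidase gene, BnaC01g02300D, and an unnamed gene, BnaC02g19250D, rose by 2.37 and 2.05 on the log2 scale. For all 4 of these genes the spread among the 29 °C libraries was small beside the distance to 21 °C. The remaining pair fell. *CPI1* (BnaC08g33670D), a sterol synthesis gene, had 1.15, 1.06 and 1.02 CPM at 29 °C, against 6.53, 6.8 and 4.74 CPM at 21 °C (log2 fold change -2.48, standard error 0.20, edgeR adjusted p = 0.00766), and the unnamed BnaA06g12480D had 3.36, 4.29 and 2.29 CPM at 29 °C, against 28.2, 30.2 and 38 CPM at 21 °C (log2 fold change -3.28, standard error 0.24, edgeR adjusted p = 0.00719). Every 29 °C library of both genes lay below every 21 °C library.

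**Figure D3:**
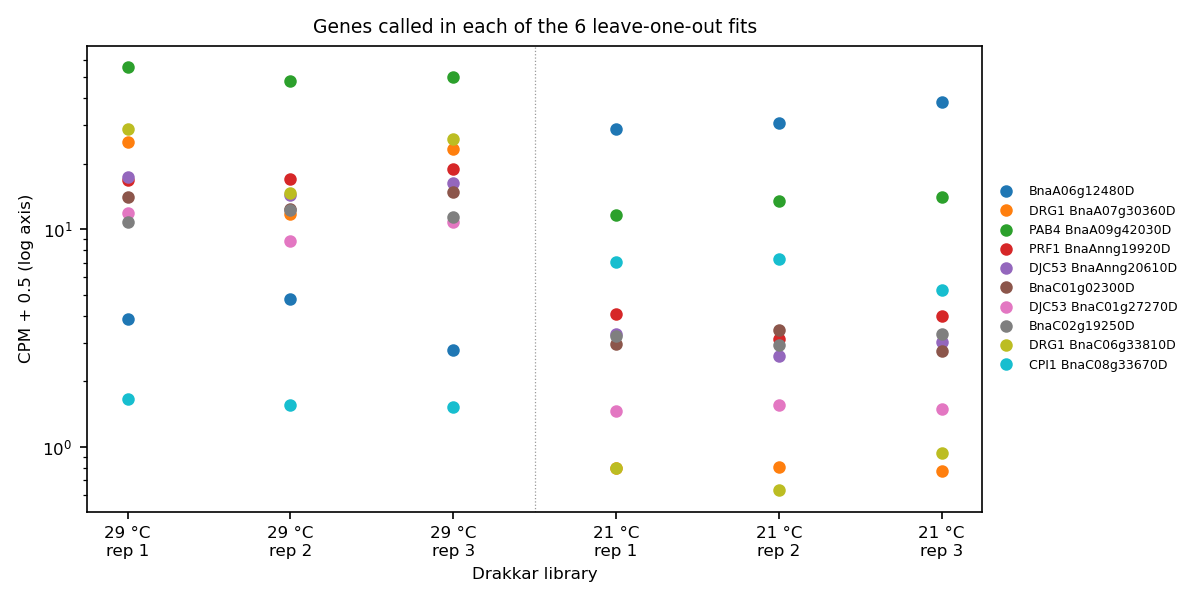
Level of the 10 genes that were DEGs in each of the 6 leave-one-out fits, as CPM + 0.5 on a log axis, in the 3 libraries at 29 °C and the 3 at 21 °C, 1 colour per gene. The 8 upregulated genes lie higher in every 29 °C library and the 2 downregulated genes lie lower.

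Among DEGs with at least 1 CPM in every 29 °C library, 6 of the 8 largest rises were of chaperone and co-chaperone genes. Without that limit *BnGolS1* (BnaA04g26930D, log2 fold change 8.65) and *GSTU12* (BnaA02g35760D, 8.53) entered the 8, and 5 were of such genes. *GSTU12* had 1.84, 0.343 and 2.08 CPM at 29 °C, against 0, 0 and 0 CPM at 21 °C. Against a floor of 3 counts per library its mean at 29 °C was at least 16.4-fold higher. Its fold change and its rank thus rest on libraries without reads at 21 °C. The designed primer pairs of 3 chaperone genes and of *BnGolS1* are given to identify copies described below, in lower case and from 5′ to 3′.
*BnHSP17.6II* forward: aatcctcgaagacatgctaga
*BnHSP17.6II* reverse: ccaggcatgtccaccacgaa
*BnHSP23.6-MITO* forward: cgatcccttttcaccgacga
*BnHSP23.6-MITO* reverse: cgactagccgacaacagagg
*BnHSP70* forward: agcgttgaggaggttgagaa
*BnHSP70* reverse: gggctccatacacttcctga
*BnGolS1* forward: ccagtggccgaaggaagag
*BnGolS1* reverse: aacatcccggcgttgaagtaa
They are assigned to BnaC03g05240D, BnaA01g14560D, BnaA01g30490D and BnaA04g26930D, in that order. The names of all genes below come from lists that the study drew from these same libraries, most of them upregulated genes. The counts of members that rose are therefore no independent evidence of a direction. Of the 2092 tested genes with an Arabidopsis locus in those sources, 1196 were upregulated and 163 downregulated. These numbers, rather than the shares over all genes tested, are the ones to set beside the list counts.

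Of 28 named small heat-shock protein genes, 21 were tested, 14 were upregulated and 0 downregulated, with a median log2 fold change of 3.42 against 0.01 over all genes tested. Their summed level was 1948, 177 and 2308 CPM at 29 °C, against 95, 71.4 and 98.1 CPM at 21 °C. *BnHSP23.6-MITO*, whose product is mitochondrial, had 251, 34.8 and 287 CPM at 29 °C, against 2.17, 1.45 and 2.25 CPM at 21 °C (log2 fold change 6.61, standard error 0.83, edgeR adjusted p = 0.0153). Its C subgenome copy, BnaC01g17140D, had 136, 10.9 and 182 CPM at 29 °C, against 0.0903, 0.31 and 0.185 CPM at 21 °C (log2 fold change 9.07, standard error 1.24, edgeR adjusted p = 0.0182). In both copies 29 °C replicate 2 was more than 7-fold below the other 29 °C libraries and still above every 21 °C library. *HSP17.6II* (BnaC02g04180D), of class II, had 61.4, 1.23 and 95.2 CPM at 29 °C, against 0.0903, 0.181 and 0.0616 CPM at 21 °C (log2 fold change 8.80, standard error 1.68, edgeR adjusted p = 0.0333), and *HSP17.6B* (BnaC04g40580D), of class I, had 275, 26.1 and 381 CPM at 29 °C, against 12.6, 8.71 and 14.1 CPM at 21 °C (log2 fold change 4.27, standard error 0.87, edgeR adjusted p = 0.0378). In *HSP17.6II* the lowest 29 °C library exceeded the highest at 21 °C only by about 1 CPM.

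The other 7 small heat-shock protein genes did not pass the filter on low counts, and all had under 1 CPM in 29 °C replicate 2. *BnHSP17.6II* (BnaC03g05240D) had 49.1, 0.274 and 87.2 CPM at 29 °C, against 0.0602, 0.0517 and 0.0616 CPM at 21 °C. *HSP22.0* (BnaC03g28860D) had 21.4, 0.0343 and 50.9 CPM at 29 °C, against 0, 0 and 0 CPM at 21 °C, and against a floor of 3 counts per library its mean at 29 °C was at least 278-fold higher. In both genes 29 °C replicates 1 and 3 were high and replicate 2 lay near the 21 °C libraries. With 29 °C replicate 2 left out, all 7 were tested and upregulated, and 27 of the 28 genes were. Over all genes tested, 4.41% were upregulated without this library. Since it was the 29 °C library in which the 7 were lowest, their calls without it are no separate support for a rise. In that fit the log2 fold change was 10.14 (edgeR adjusted p = 0.000407) for BnaC03g05240D. When 21 °C replicate 1, 2 or 3 or 29 °C replicate 3 was left out, none of the 28 was called, and 2 were without 29 °C replicate 1.

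The list of HSP70 and J-domain genes, matched by locus and by words of the description, had 12 members, all tested, of which 8 were upregulated and 0 downregulated (median log2 fold change 3.54). They summed to 2785, 337 and 2566 CPM at 29 °C, against 93.3, 81.8 and 105 CPM at 21 °C. *HSP70* (BnaC01g38510D) had 815, 103 and 649.8 CPM at 29 °C, against 12.2, 11.1 and 15.7 CPM at 21 °C (log2 fold change 5.33, standard error 0.74, edgeR adjusted p = 0.0186), and *HSP70B* (BnaC03g37680D) had 579.5, 57.2 and 643 CPM at 29 °C, against 10.2, 7.42 and 11.4 CPM at 21 °C (log2 fold change 5.46, standard error 0.87, edgeR adjusted p = 0.024). *BnHSP70* (BnaA01g30490D), a further *HSP70B* copy, had 569, 47.1 and 433 CPM at 29 °C, against 18.1, 16.6 and 21.3 CPM at 21 °C (log2 fold change 4.23, standard error 0.81, edgeR adjusted p = 0.0333). In all 3 genes 29 °C replicates 1 and 3 were more than 6-fold above replicate 2, and replicate 2 was above every library at 21 °C. Without 29 °C replicate 2, 11 of the 12 were upregulated, and without any other single library at most 1 of the 12 was called. The match left out further annotated genes of these families, so the counts are those of the list alone. Among the genes left out were the *DJC53* copies described above, which were DEGs whichever library was left out, and the 3 called copies of *HSP70T-2* (AT2G32120), with log2 fold changes of 1.21 to 2.56.

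HSP90 and its co-chaperones were named for 8 genes, of which 6 were upregulated and 0 downregulated (median log2 fold change 5.26). *HSP81-2* (BnaC02g12750D), a cytosolic HSP90 gene, had 1030.4, 299.8 and 1210.2 CPM at 29 °C, against 215, 189 and 206 CPM at 21 °C (log2 fold change 2.06, standard error 0.46, edgeR adjusted p = 0.045). *ROF2* (BnaA06g30120D), which encodes a peptidyl-prolyl isomerase that binds HSP90, had 355, 21.9 and 366 CPM at 29 °C, against 0.331, 0.621 and 1.08 CPM at 21 °C (log2 fold change 8.51, standard error 1.20, edgeR adjusted p = 0.0187). *P23-1* (BnaA09g30420D) had 99.2, 7.03 and 99.4 CPM at 29 °C, against 0.271, 0.0259 and 0.0616 CPM at 21 °C (log2 fold change 9.16, standard error 1.31, edgeR adjusted p = 0.0193). In each of these genes the lowest library at 29 °C was above the highest at 21 °C. Their second copies, BnaC07g26590D for *ROF2* and BnaC05g17990D for *P23-1*, rose by 8.28 and 8.81 on the log2 scale. All 8 genes were upregulated without 29 °C replicate 2, and at most 1 was called without any other single library. *ZPR1* (BnaA08g07440D), a zinc finger protein gene which belongs to no list, was among the 8 largest rises within the limit of 1 CPM given above, with 58.8, 7.51 and 48.9 CPM at 29 °C, against 0.0602, 0.129 and 0.185 CPM at 21 °C (log2 fold change 8.22, standard error 0.99, edgeR adjusted p = 0.0143).

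Among 6 genes of the list of HSP101 and other thermotolerance genes, which held copies of *HSP101*, *HSA32*, *MBF1C* and *BAG6*, 4 were upregulated and 0 downregulated (median log2 fold change 3.71). *HSP101* (BnaA07g31420D) had 105, 13.2 and 57.2 CPM at 29 °C, against 2.14, 2.38 and 2.56 CPM at 21 °C (log2 fold change 4.63, standard error 0.71, edgeR adjusted p = 0.0226). *BnHSA32* (BnaC07g36650D), which in Arabidopsis is needed to keep acquired thermotolerance, had 17.4, 3.09 and 15.7 CPM at 29 °C, against 0.12, 0.103 and 0.0924 CPM at 21 °C (log2 fold change 6.79, standard error 0.82, edgeR adjusted p = 0.0145). The 29 °C libraries did not overlap those at 21 °C in either gene. Leaving out 29 °C replicate 2 gave 6 upregulated genes, and leaving out any other single library gave at most 1. The chloroplast HSP60 chaperonin genes *CPN60B* (BnaA03g32840D) and *CPN60A* (BnaA04g16190D) belong to no list, and rose by 2.75 and 1.57 on the log2 scale.

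Heat-shock factor genes moved in different directions, by gene. Of 8 named genes, 2 were upregulated and 2 downregulated (median log2 fold change -0.05). Called or not, every *HSFB2B* copy of the list had a negative fold change and every *HSF4* and *HSFA4A* copy a positive one. The median thus lies between groups of opposite sign. The study names the HSFB family as the main repressors of the temperature stress response. The downregulated genes were copies of *HSFB2B*. BnaA09g21510D had 2.4, 2.98 and 1.23 CPM at 29 °C, against 7.35, 7.34 and 8.56 CPM at 21 °C (log2 fold change -1.81, standard error 0.29, edgeR adjusted p = 0.0241) and BnaC09g52680D had 2.15, 2.19 and 0.739 CPM at 29 °C, against 6.38, 7.09 and 7.02 CPM at 21 °C (log2 fold change -2.0, standard error 0.35, edgeR adjusted p = 0.0281). Their 29 °C libraries all lay below those at 21 °C, with replicate 3 the lowest. The upregulated genes were *HSFA4A* (BnaC03g62890D), by 1.21 on the log2 scale, and *HSF4* (BnaCnng56320D), by 1.11. The remaining genes of the list were not called. They were further copies of *HSFB2B* (BnaC03g73070D, -1.98, and BnaA03g24840D, -1.2), *HSF4* (BnaC01g01790D, 1.42) and *HSFA4A* (BnaA01g09690D, 1.26). None of the 8 was called when any 21 °C library or 29 °C replicate 1 was left out, whereas 3 were called without 29 °C replicate 3 and 5 without 29 °C replicate 2.

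Across the 54 chaperone genes of the first 4 lists, 29 °C replicate 2 lay below both other 29 °C libraries in 49 genes and more than 4-fold below both in 31, on the log2(CPM + 0.5) scale. It still lay above every 21 °C library in 49. The names come from lists drawn from these same libraries, so this count is no separate support for a rise in it. Over all genes tested, the 3 libraries of one temperature lay above the 3 of the other in 34.8%. Replicate 2 at 29 °C was below both other 29 °C libraries in 55.7% of the 1308 upregulated genes and in 38.5% of all genes tested. Over all genes tested, replicates 1, 2 and 3 at 29 °C were more than 4-fold below both others for 17, 93 and 3 genes. They were more than 4-fold above both for 1, 44 and 91. At 21 °C these counts were 1, 123 and 0 below, and 28, 17 and 3 above. At 29 °C, the median log2 distance of replicate 2 from the mean of replicates 1 and 3 was -3.0 for small heat-shock proteins. The median was -2.83 for HSP70 and J-domain proteins and -2.28 for HSP90 and its co-chaperones. It was 0.57 for ethylene synthesis and 0.16 for cytokinin genes, and -0.01 over all genes tested. In Duplo at 29 °C, *HSP70* (BnaC01g38510D) had 85.5, 139 and 99 CPM and *HSP101* (BnaA07g31420D) 11.1, 12.7 and 25.4 CPM. Drakkar 29 °C replicate 2, with 103 and 13.2 CPM, lay within these ranges. For *BnHSP23.6-MITO* (BnaA01g14560D) it lay above the Duplo libraries, with 34.8 CPM against 18.7, 25.5 and 27.7 CPM. These genes are examples, and the lists were not compared in this way. The source of the lower chaperone level in Drakkar 29 °C replicate 2 was not tested.

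**Figure D4:**
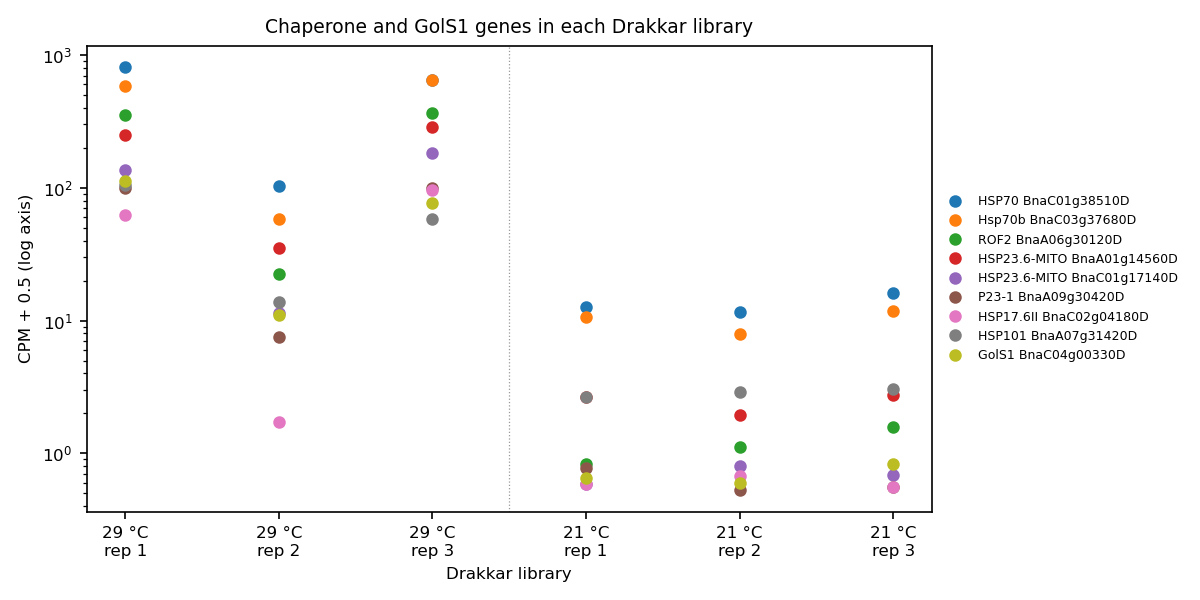
Level of 8 chaperone genes and 1 *GolS1* gene, as CPM + 0.5 on a log axis, in the 3 libraries at 29 °C and the 3 at 21 °C, 1 colour per gene. For each gene, 29 °C replicate 2 lies below 29 °C replicates 1 and 3 and above the 21 °C libraries.

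The raffinose family is made from galactinol, and of 11 named genes of this pathway 4 were upregulated and 0 downregulated (median log2 fold change 3.10). All 4 encode galactinol synthase, *GolS1*, the first enzyme, with log2 fold changes from 6.06 to 8.65. BnaC04g00330D had 112, 10.6 and 76.1 CPM at 29 °C, against 0.151, 0.103 and 0.339 CPM at 21 °C (log2 fold change 8.39, standard error 1.06, edgeR adjusted p = 0.0155), and *BnGolS1* (BnaA04g26930D) had 17.4, 0.754 and 32.6 CPM at 29 °C, against 0.0903, 0.0259 and 0 CPM at 21 °C (log2 fold change 8.65, standard error 1.66, edgeR adjusted p = 0.0333). As in the chaperone genes, 29 °C replicate 2 was the lowest of the 3 and did not overlap 21 °C. The other 7 genes, of raffinose synthases and related enzymes, had log2 fold changes from 1.34 to 3.16 and did not pass. Without 29 °C replicate 2, 10 of the 11 were upregulated, and without any other single library at most 1.

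Of 5 genes for catalases and ascorbate peroxidases, which remove hydrogen peroxide, 4 were tested and 4 upregulated (median log2 fold change 1.51). *CAT3*, a catalase, had in BnaC07g15270D 18.2, 17.9 and 24.5 CPM at 29 °C, against 7.77, 8.27 and 7.82 CPM at 21 °C (log2 fold change 1.34, standard error 0.15, edgeR adjusted p = 0.0114), and 29 °C replicate 2 was level with replicate 1. The copy *BnCAT3* (BnaC08g19360D) had 0.872, 0.343 and 1.09 CPM at 29 °C, against 0, 0 and 0 CPM at 21 °C, at least 8.86-fold higher against a floor of 3 counts per library. Between 0 and 5 genes of the list were called when each library was left out, with 5 without 29 °C replicate 2 and 0 without any 21 °C library.

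Of 27 class III peroxidase genes, which act in the cell wall, 14 were upregulated and 2 downregulated among 24 tested (median log2 fold change 2.26). All 6 named copies of one locus, AT2G38380, rose, by 1.89 to 4.38. Adjacent copies differed in their libraries. BnaC04g56590D had 61.6, 63.8 and 61.2 CPM at 29 °C, against 17.1, 10.3 and 15.8 CPM at 21 °C (log2 fold change 2.11, standard error 0.19, edgeR adjusted p = 0.0089), and BnaC04g56610D, with the next but one gene number, had 190.1, 57.6 and 176 CPM at 29 °C, against 32.3, 20.7 and 25.7 CPM at 21 °C (log2 fold change 2.43, standard error 0.43, edgeR adjusted p = 0.0293). The 29 °C libraries of the first were alike, whereas in the second replicate 2 was about 3-fold lower, and neither overlapped 21 °C. Without 29 °C replicate 2, 15 of the 27 genes rose and 1 fell, and leaving out any other single library left between 1 and 4 called.

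Glutathione S-transferases, which conjugate toxic compounds, had 10 upregulated and 0 downregulated genes among 22 tested of 23 (median log2 fold change 2.31). *GSTF3* (BnaCnng47740D) had 315, 233 and 362 CPM at 29 °C, against 173, 106 and 144 CPM at 21 °C (log2 fold change 1.10, standard error 0.23, edgeR adjusted p = 0.0387), and *GSTU10* (BnaCnng35440D) had 2.77, 6.0 and 4.93 CPM at 29 °C, against 0.0602, 0.0259 and 0.154 CPM at 21 °C (log2 fold change 5.82, standard error 0.52, edgeR adjusted p = 0.0089). Neither gene overlapped between temperatures, and in *GSTU10* replicate 2 was the highest at 29 °C. Without 29 °C replicate 2, 18 genes of the list were upregulated, and without any other single library between 0 and 2.

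All 7 named ethylene synthesis genes were upregulated (median log2 fold change 1.93), 4 of them copies of *ACO1*, which makes ethylene in its last step. *BnACO1* (BnaCnng33000D) had 43.4, 65.8 and 31.1 CPM at 29 °C, against 10.3, 9.44 and 8.53 CPM at 21 °C (log2 fold change 2.31, standard error 0.27, edgeR adjusted p = 0.0129). The 7 genes summed to 158, 234 and 132 CPM at 29 °C, against 50, 39.8 and 50.3 CPM at 21 °C, so that replicate 2 was the highest at 29 °C, and the temperatures did not overlap in any of the 7. Leaving out 29 °C replicate 2 left all 7 called, leaving out 29 °C replicate 1 left 4, and leaving out 29 °C replicate 3 left 3. None was called when a 21 °C library was left out.

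Of 9 genes for cytokinin breakdown and response, 8 were tested, 5 were upregulated and 0 downregulated (median log2 fold change 2.89). *KMD1* encodes an F-box protein that in Arabidopsis limits cytokinin response, and its copy BnaC06g40570D had 5.64, 9.46 and 11.2 CPM at 29 °C, against 0.422, 0.853 and 1.05 CPM at 21 °C (log2 fold change 3.49, standard error 0.37, edgeR adjusted p = 0.0114). *BnCKX1* (BnaC04g01930D), a cytokinin oxidase gene, had 2.06, 0.686 and 0.739 CPM at 29 °C, against 0.12, 0 and 0.0924 CPM at 21 °C (log2 fold change 4.03, standard error 0.79, edgeR adjusted p = 0.035). Both were above every 21 °C library in each 29 °C library, and *BnCKX1* was close to the floor of 3 counts at 21 °C. Of 7 auxin response genes 5 were upregulated and 0 downregulated (median log2 fold change 1.21), among them *SAUR59* (BnaC08g30850D) with 2.02, 2.4 and 2.67 CPM at 29 °C, against 0.783, 0.75 and 0.954 CPM at 21 °C (log2 fold change 1.51, standard error 0.21, edgeR adjusted p = 0.0187). Without 29 °C replicate 2, 7 genes of either list were upregulated. Without 29 °C replicate 1, 4 cytokinin and 1 auxin genes were called, and without 29 °C replicate 3, 1 and 0. Without a 21 °C library, at most 1 of the cytokinin genes and 0 of the auxin genes were called.

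Expansins and xyloglucan endotransglucosylases, which loosen cell walls, had 7 upregulated and 1 downregulated gene among 13 tested of 15 (median log2 fold change 1.56). *BnXTH24* (BnaC07g42500D) had 21.7, 6.21 and 18.7 CPM at 29 °C, against 2.65, 1.68 and 1.79 CPM at 21 °C (log2 fold change 2.93, standard error 0.47, edgeR adjusted p = 0.0241), and *EXPA4* (BnaC04g05770D) had 8.04, 7.13 and 7.78 CPM at 29 °C, against 2.11, 2.53 and 3.57 CPM at 21 °C (log2 fold change 1.48, standard error 0.21, edgeR adjusted p = 0.0184). *BnXTR6* (BnaA01g15000D), from the oligonucleotide table, is outside the list, which was matched by words of the description, and had 21, 23.1 and 21.6 CPM at 29 °C, against 8.31, 5.95 and 17.1 CPM at 21 °C with no call (log2 fold change 1.07, standard error 0.35, edgeR adjusted p = 0.101). In *BnXTH24* replicate 2 was the lowest at 29 °C, and in *EXPA4* the 29 °C libraries were alike. Of 8 SR splicing factor genes, 6 were upregulated and 0 downregulated (median log2 fold change 1.35). *BnSR30* (BnaA06g37780D) had 46.7, 16.6 and 35 CPM at 29 °C, against 10.1, 6.88 and 12.7 CPM at 21 °C (log2 fold change 1.73, standard error 0.38, edgeR adjusted p = 0.045). Without 29 °C replicate 2 the cell wall list had 9 upregulated and 2 downregulated genes, and at most 1 without any other single library. In the same fit the SR list had 5 upregulated genes, and without any other single library 0.

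**Figure D5:**
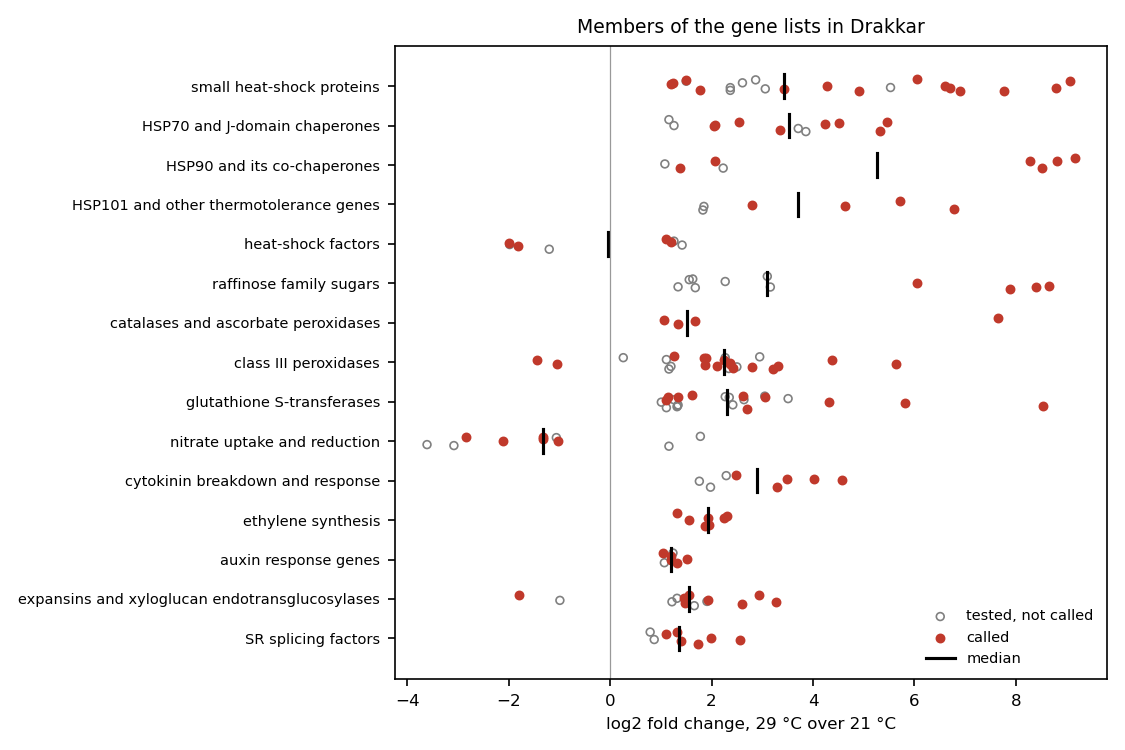
Log2 fold change of 29 °C over 21 °C for each tested member of the 15 gene lists (horizontal axis), with DEGs as filled points, other tested genes as open circles and the list median as a bar. Medians run from -1.32 for nitrate genes and -0.05 for heat-shock factors to 5.26 for HSP90 and its co-chaperones.

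Of 10 genes for nitrate uptake and reduction, all tested, 5 were downregulated and 0 upregulated (median log2 fold change -1.32). The nitrate transporter gene *NRT2.1* (BnaC08g43380D) had 0.156, 0.72 and 0.176 CPM at 29 °C, against 2.32, 3.8 and 1.39 CPM at 21 °C (log2 fold change -2.84, standard error 0.61, edgeR adjusted p = 0.0429). *NIA1* encodes nitrate reductase. Its copy BnaC06g38300D had 13, 12.6 and 10.7 CPM at 29 °C, against 21.8, 33.8 and 34.8 CPM at 21 °C (log2 fold change -1.32, standard error 0.19, edgeR adjusted p = 0.0206), and BnaA07g20840D had 4.11, 3.36 and 2.11 CPM at 29 °C, against 8.34, 20.1 and 13.3 CPM at 21 °C (log2 fold change -2.12, standard error 0.36, edgeR adjusted p = 0.0271). Each 29 °C library lay below each 21 °C library in these 3 genes. The copies in the oligonucleotide table, *BnNRT2.1* (BnaA06g04570D) and *BnNIA1* (BnaCnng60930D), had log2 fold changes of -3.61 and -3.08 and did not pass (edgeR adjusted p = 0.0545 and 0.0515). Members with a positive fold change were *NIR1* (BnaA07g04150D), with 4.42, 26.1 and 6.48 CPM at 29 °C, against 3.13, 3.57 and 4.03 CPM at 21 °C and no overlap but no call, and a further *NRT2.1* copy, BnaAnng40490D, with 3.58, 0.171 and 5.42 CPM at 29 °C, against 0.512, 2.69 and 0.831 CPM at 21 °C and overlapping temperatures. Without 29 °C replicate 2, 7 genes were downregulated, and without any other single library at most 1 was called.

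Among DEGs with at least 1 CPM in every 21 °C library, the 8 largest falls were of genes without a name in the sources used here. Without that limit *CDF1* (BnaAnng29770D), which encodes a DOF transcription factor, entered the 8, with a log2 fold change of -4.01. Genes BnaC02g12680D, BnaC02g12690D and BnaC02g12700D follow each other in gene number and had log2 fold changes of -5.59, -5.26 and -4.69. BnaC02g12680D had 0.405, 0.72 and 0.0352 CPM at 29 °C, against 17.9, 22.8 and 16 CPM at 21 °C (log2 fold change -5.59, standard error 0.52, edgeR adjusted p = 0.0089). BnaC04g28450D had 0.779, 0.137 and 0.246 CPM at 29 °C, against 16.2, 15.7 and 14.6 CPM at 21 °C (log2 fold change -5.28, standard error 0.44, edgeR adjusted p = 0.00766). In all of these every 29 °C library was far below every 21 °C library. Among named genes, 3 copies of a tyrosine transaminase locus, AT4G23590, fell. BnaA03g46060D had 121, 119 and 90.1 CPM at 29 °C, against 549, 387 and 420.3 CPM at 21 °C (log2 fold change -2.04, standard error 0.19, edgeR adjusted p = 0.0089), and was a DEG in 5 of the 6 leave-one-out fits, and not without 21 °C replicate 3. Its 29 °C libraries lay between 90.1 and 121 CPM and those at 21 °C between 387 and 549 CPM.

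Copies of one Arabidopsis locus mostly moved in one direction. Of 247 loci with at least 2 copies among the DEGs, 5 had copies called in both directions. Among all DEGs with a locus, 1196 were upregulated and 163 downregulated. Since most DEGs with a locus rose, part of the shared direction follows from that share. Whether copies share a direction more often than other DEGs with a locus was not tested. Neighbouring gene numbers with the same direction formed 51 runs of 2, 3 runs of 3 and 1 run of 4 among the DEGs.

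Set beside Duplo, no gene passed edgeR's test of a difference in response between the varieties, which does not show that the responses were alike. A test of the variety by temperature interaction on the 12 libraries together gave 0 of 55227 genes (lowest adjusted p = 0.0927 in edgeR), 3891 genes at an unadjusted p under 0.05, and 142 genes with DESeq2. In Duplo alone, 1 of 51673 genes (0.00194%) was a DEG. This count does not show that Duplo hardly responded. For example, *DRG1* (BnaA07g30360D) had 7.49, 8.34 and 13 CPM in Duplo at 29 °C, against 0.151, 0.476 and 0.0332 CPM at 21 °C. It was not called there (log2 fold change 5.44, edgeR adjusted p = 0.0888). The study, with DESeq2 and the same cuts, reported many more Duplo DEGs. The Drakkar minus Duplo difference in log2 fold change was 12.36 (standard error 3.13, edgeR adjusted p = 0.499) for *HSP17.6II* (BnaC02g04180D), which in Duplo had 0.186, 0.48 and 1.66 CPM at 29 °C, against 0.0302, 26.8 and 0 CPM at 21 °C. It was 0.61 (standard error 0.80, edgeR adjusted p = 0.947) for *DRG1* (BnaA07g30360D). The count of differing genes was 137 without Duplo 21 °C replicate 2 or without Duplo 29 °C replicate 3, and 0 or 1 without any other single library.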

How the data were processed

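The members, gene lists and tests were chosen with earlier results of these data known. Per the labels and the study's methods, RNA (TruSeq Stranded mRNA, paired-end HiSeq2000) was aligned by the authors with HISAT2 to the AST_PRJEB5043_v1 assembly, and the authors deposited the raw count of reads per gene for each library. The counting program, its use of strand and its handling of reads with several alignments are not given in the sources used here. The deposited DESeq2 tables hold the authors' fold changes and p-values and were not used. A line without a gene name, with at most 6.55e-06% of a library's counts, was left out.

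From the counts, genes were filtered with filterByExpr, scaled with TMM (factors from 0.943 to 1.06) and tested with edgeR 4.0.16 in R 4.3.3 (quasi-likelihood test, Benjamini-Hochberg adjustment, DEGs at adjusted p under 0.05 and absolute log2 fold change above 1). Standard errors were derived from the F statistic (|log2 fold change| / √F). Levels are CPM with TMM factors, and 0.5 was added before log2. DESeq2 1.42.0 served as an alternative. The test was checked on simulated data. Depth was 26790589 to 39934384 reads per library, and bounds against the floor of 3 counts cover counting error only.

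Gene names came from supplementary lists of the study, which gave an Arabidopsis locus for 2273 genes. Genes named in the text are the 8 strongest rises and 8 strongest falls of DEGs without overlap and with at least 1 CPM in each library of the higher temperature, those called in all 6 leave-one-out fits, the genes of the oligonucleotide table, up to 3 DEGs by level and up to 2 by fold change in each list, and loci with at least 3 called copies. Of these, the ones that carry a sentence are named. Outside this rule, chosen after their values were seen, are *NIR1*, the second *NRT2.1* copy, *HSF4* (BnaCnng56320D), *HSP22.0*, *CDF1*, *CPN60A*, *CPN60B* and the genes that set the libraries numbered 2 apart. Also outside it are the heat-shock factor genes that were not called. From the small heat-shock and auxin lists, *HSP101* and a TCP factor gene taken in by a word were dropped after the matches were seen. Alternatives were other scaling, filters, a replicate block, robust estimation, DESeq2, all 12 libraries in one fit and each library left out. The block of replicate 2 against 1 and 3, and the fit without both libraries numbered 2, were chosen after seeing the data. The replicate labels are taken as biological, as the study describes them.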

Additional observations from a re-analysis of the deposited data

How the results depend on the processing

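With the replicate number as a block, 545 genes were DEGs, 426 upregulated and 119 downregulated, and the interaction gave 6 genes (lowest adjusted p = 0.0414, edgeR). The correlation of deviations between same-numbered libraries was -0.0771, 0.0527 and 0.132 for replicates 1, 2 and 3. At 29 °C, replicate 1 correlated best with 21 °C replicate 2 (0.134). Replicates 2 and 3 at 29 °C correlated best with the 21 °C library of their own number. For replicate 3 the margin was small (0.132 against 0.115 with 21 °C replicate 1). Whether the numbers pair the samples is not settled by these values. A block of replicate 2 against 1 and 3, added after seeing the data, gave 1823 DEGs. Leaving out both libraries numbered 2 gave 2580 DEGs, 1811 upregulated and 769 downregulated, and one fit of all 12 libraries gave 1122, with 790 upregulated and 332 downregulated. Leaving out each library in turn gave 11 to 3173 DEGs, 9 to 2376 upregulated and 2 to 797 downregulated, and 0 to 137 genes for the interaction, where DESeq2 gave 142. DESeq2 gave 2488 Drakkar DEGs and 1653 of the 1707 were among them. RLE factors, no filter, at least 10 counts in every library, robust estimation and library totals gave 1291 to 2136 DEGs. Library totals moved the median over all genes (log2 fold change) to 0.125, against 0.00626 with TMM, and gave 86.2% of DEGs upregulated against 76.6%. Over the 184 genes of all lists, 96 rose and 10 fell, against 147 and 16 with DESeq2, 48 and 5 in the fit of 12 libraries, 47 and 3 with the block, and 1 and 0 without 21 °C replicate 3. For heat-shock factors, median log2 fold change turned to 0.0692 with library totals and lay between -0.273 (without 29 °C replicate 2) and 0.195 (without 29 °C replicate 3) with 1 library left out, and the actin gene *BnACT7* (BnaC02g00690D) to 0.02 with library totals, and the cause was not tested.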

Other observations

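Of the loci with at least 3 called copies, 4 that belong to no list are described. The 3 called copies of *PRR7*, a clock regulator, summed to 22.8, 23.4 and 25.8 CPM at 29 °C, against 7.29, 11 and 9.51 CPM at 21 °C. The 3 called copies of *PCL1*, a Myb factor of the clock, summed to 10, 19.9 and 9.5 CPM at 29 °C, against 3.04, 4.71 and 3.91 CPM at 21 °C, with replicate 2 the highest at 29 °C. The temperatures did not overlap in either sum. Of 7 tested copies of *MT2A*, a metallothionein that binds copper, 6 were upregulated with log2 fold changes from 1.15 to 2.67, and their sum was 96.9, 119 and 99.6 CPM at 29 °C, against 42.1, 33.5 and 43.9 CPM at 21 °C. All 4 named copies of the abscisic acid receptor gene *PYL6* rose by 1.63 to 3.45 and summed to 24.1, 13 and 26.9 CPM at 29 °C, against 5.96, 4.32 and 7.67 CPM at 21 °C. The receptor genes of the oligonucleotide table, *BnPYL4* (BnaC03g21240D) and *BnPYL5* (BnaA10g24990D), overlapped between temperatures and were not called. Their log2 fold changes were 0.53 and 0.51 (edgeR adjusted p = 0.224 and 0.141). Most of the called copies were called in only 1 of the 6 leave-one-out fits, the one without 29 °C replicate 2. BnaC03g00710D, a copy of *MT2A*, was a DEG in 5 of the 6 such fits.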
